A study of Rattus norvegicus and Sus scrofa and Bos taurus with 188 samples.

Results

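The subcortical maternal complex and the NLRP genes of the egg were followed in RNA of pig morulae. The rule for members used symbols and no levels, but it was set with earlier results of these data known. The symbols were NLRP2, NLRP5, NLRP7, NLRP9, OOEP, TLE6, PADI6, KHDC3L, DPPA3 and DPPA5. Of these 10 symbols, 4 had a row in the table of 15877 genes, namely DPPA5, NLRP9, OOEP and PADI6. The other 6 symbols (NLRP2, NLRP5, NLRP7, TLE6, KHDC3L and DPPA3) had no row, so their RNA was not analysed here. A missing row says nothing on expression.

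The series compares the epigenome and transcriptome of gametes and early embryos among mammals. One group was used here: morulae of the pig (Sus scrofa) whose titles carry the mark PG, which sister samples spell out as parthenogenetic activation, the start of development from an egg with no sperm. The embryos would then carry a maternal genome only, and the eggs' cytoplasm, with the RNA stored in it, is the starting material. The labels name no genotype, breed, age or agent for the group. The 4 Smart-seq2 libraries of the group were merged by the authors into 1 column of FPKM (fragment counts divided by transcript length and by library size), so there is no replicate spread, no n and no test for any value below, and the depth is unknown. Levels are therefore set side by side only as values, and the order of close levels may not hold between embryos.

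The complex is a protein assembly beneath the membrane of the mammalian egg, built from products of maternal-effect genes, whose RNA is made while the oocyte grows and whose loss in the mother stops or disturbs cleavage of the embryo. NLRP5 (also called MATER), OOEP (FLOPED), TLE6 and KHDC3L (FILIA) form its core, PADI6 is needed for the cytoplasmic lattices of the egg, and NLRP2 and NLRP7 have been tied to the complex and to imprinting. DPPA3 protects maternal DNA methylation after activation, and DPPA5 is a KH-domain RNA-binding protein of pluripotent and germ cells. OOEP, KHDC3L and DPPA5 belong to the same small family of KH-domain proteins. In the RefSeq annotation of the rat (GRCr8), Ooep and Dppa5 were neighbours with 0 annotated genes between them; their position in the pig genome was not analysed here.

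All 4 measured members stood at 1 FPKM or more, the level at which a gene was counted as expressed. Of all 15877 genes, 48.8% reached that level. Many genes have several transcript rows, whereas 3 of the 4 members had 1 row. Among the 7058 genes with 1 row the share was 40.0%. Why these shares differ was not tested. The members' levels ran from 4.10 to 40.4 FPKM with a median of 10.1 FPKM, against a median of 0.916 FPKM over all genes and 6.89 FPKM over genes at 1 FPKM or more. Summed, their 5 rows held 0.0212% of the FPKM total.

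**Figure D1:**
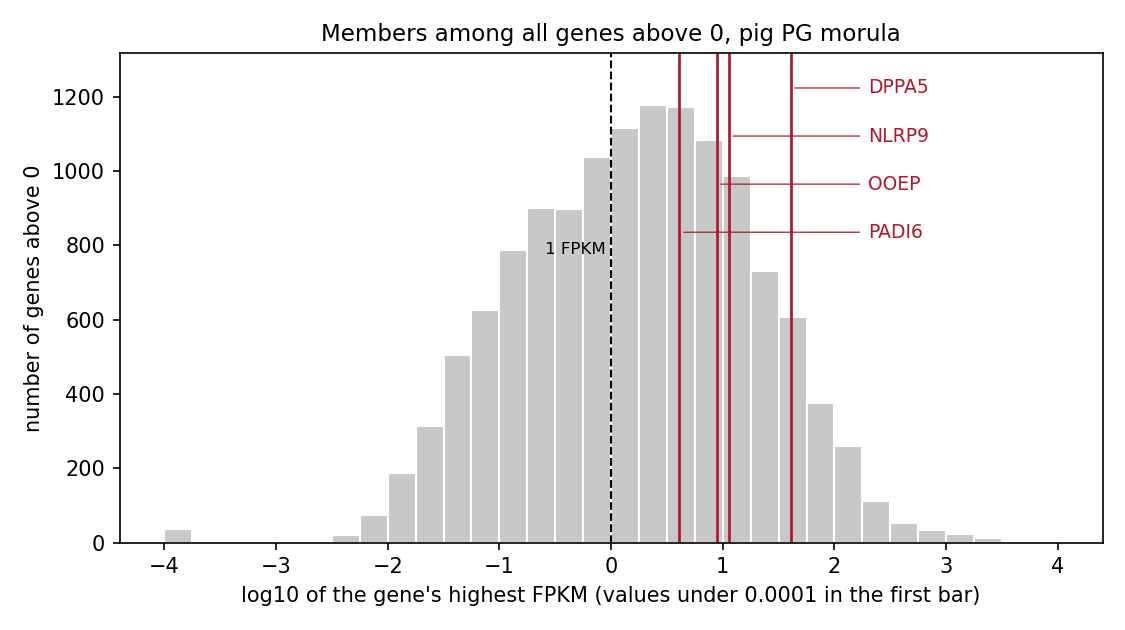
Number of genes (y axis) by the log10 of their highest FPKM (x axis) for all genes above 0 in the merged morula column, with red lines at the 4 members and a dashed line at 1 FPKM. PADI6 lies at 4.10 FPKM, OOEP at 8.79 FPKM and NLRP9 at 11.4 FPKM, within the bulk of the expressed genes, and DPPA5 at 40.4 FPKM lies on the upper flank.

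DPPA5 was the highest member. Its one transcript, ENSSSCT00000004735.3, stood at 40.4 FPKM, which placed the gene at rank 1199 of all genes, with 92.5% of the other genes below it. Among genes with 1 row it ranked 539, with 92.4% below. It was 44.1-fold above the median gene and 5.86-fold above the median of genes at 1 FPKM or more, and it made up 62.5% of the summed FPKM of the members. The nearest genes in level were GDE1 (40.5 FPKM) and KRR1 (40.4 FPKM) just above and PSMA8 (40.4 FPKM) and YWHAH (40.4 FPKM) just below. With 1 column, no pattern over samples could be compared. For scale, TMSB10, the highest gene of the table, stood at 3719 FPKM.

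NLRP9 followed. This NOD-like receptor gene is one of the NLRP genes with oocyte expression in several mammals. It had 2 transcript rows, and in practice all of its signal lay in ENSSSCT00000003671.3 at 11.4 FPKM, while ENSSSCT00000034562.2 stood at 7.22e-06 FPKM. The gene took rank 2929, with 81.6% of the other genes below. The sum of its rows was also 11.4 FPKM, and the mean of the rows was 5.68 FPKM.

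OOEP, the one core subunit of the complex with a row, stood at 8.79 FPKM in its single transcript ENSSSCT00000004737.3. Its rank was 3415, with 78.5% of the other genes below, or 80.7% among genes with 1 row. DPPA5, its relative with the same kind of domain, was 4.60-fold higher. NLRP9 was 1.29-fold above OOEP, the closest pair of levels among the members, and no spread is at hand to say whether they differ. The order turned with the mean of a gene's rows as its value, at 5.68 FPKM for NLRP9 and 8.79 FPKM for OOEP.

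PADI6, a member of the peptidylarginine deiminase family and an abundant egg protein, was the lowest member. Its transcript ENSSSCT00000003870.4 stood at 4.10 FPKM, at rank 4942 with 68.9% of the other genes below (73.7% among genes with 1 row). This was 0.594 of the median of genes at 1 FPKM or more, so PADI6 was the one member under that median. At a threshold of 5 FPKM, which 28.4% of all genes reached, 3 of the 4 members remained and PADI6 did not. DPPA5 exceeded PADI6 9.86-fold, NLRP9 exceeded it 2.77-fold and OOEP 2.15-fold.

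Each measured member was then set beside other genes of its family or, for DPPA5 and OOEP, of its kind of domain. Of 10 other NLRP genes listed, 6 had a row (NLRP1, NLRP4, NLRP10 and NLRP14 had none), and 1 of the 6 reached 1 FPKM, beside 48.8% of all genes. That was NLRP11 at 6.17 FPKM, with a second transcript at 0.989 FPKM. NLRP9 was 1.84-fold above NLRP11. NLRP13 (0.947 FPKM) and NLRP8 (0.719 FPKM) lay just under the threshold. NLRP3, the sensor of the best-known inflammasome, was at 0.592 FPKM in its highest of 7 rows and at 1.16 FPKM with its rows summed, NLRP12 was at 0.0566 FPKM and NLRP6 was listed at 0. The median of the 6 was 0.656 FPKM, and NLRP9 was above each of them. This list pools NLRP genes without a split by where they are known to be expressed. The count depends on the scale, since it was 4 of 6 at 0.5 FPKM or after rescaling to TPM (all rows summing to 1000000), and 2 of 6 with rows summed. Of all genes, 56.5% passed at 0.5 FPKM, 61.3% after rescaling to TPM and 50.6% with rows summed.

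How fragments shared by related NLRP genes, or by DPPA5 and its known retrocopies, were divided among transcripts is not given in the sources, and these levels are uncertain to that extent. The same NOD-like receptor fold serves innate immunity, and NLRP3 in the list above belongs to that arm. Further genes of the arm were therefore listed too. Of 14 other NOD-like receptor and inflammasome genes 11 had a row and 1 (9.09%) reached 1 FPKM, beside 48.8% of all genes. This was NLRX1, a mitochondrial member, at 1.47 FPKM. The count was 0 of 11 with rows averaged (41.8% of all genes) or at 5 FPKM (28.4%). The next were GSDMD, whose product forms the pore of pyroptosis, at 0.293 FPKM, and NOD1 at 0.165 FPKM. The adaptor gene PYCARD stood at 0.0393 FPKM and the protease gene CASP1 was listed at 0. The median of this list was 0.0601 FPKM, against 11.4 FPKM for NLRP9.

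Among the other deiminase genes none of the 3 with a row reached 1 FPKM, beside 48.8% of all genes. PADI3 stood at 0.391 FPKM, PADI2 at 0.0651 FPKM and PADI1 was listed at 0, while PADI4 had no row. PADI6 exceeded PADI3 10.5-fold and PADI2 62.9-fold. After rescaling to TPM 1 of the 3 passed the threshold, beside 61.3% of all genes.

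TLE6 had no row, but 5 genes of its family of transcriptional co-repressors did. Of these, 3 (60%) reached 1 FPKM, beside 48.8% of all genes. TLE3 stood at 8.03 FPKM, TLE4 at 3.48 FPKM and TLE1 at 2.93 FPKM, with TLE2 at 0.945 FPKM and AES at 0.242 FPKM. At 5 FPKM 1 of the 5 remained by the highest row, beside 28.4% of all genes. With rows summed TLE1 stood at 6.27 FPKM, TLE4 at 6.09 FPKM and TLE2 at 1.63 FPKM, while TLE3 and AES kept their values. Of the other KH-domain symbols listed, KHDC4, which shares the domain but is outside the small family named above, was at 7.02 FPKM. KHDC1 and KHDC3 (another symbol for KHDC3L) had no row. DPPA2 and DPPA4, named like DPPA3 and DPPA5 for their expression in pluripotent cells, had no row either.

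**Figure D2:**
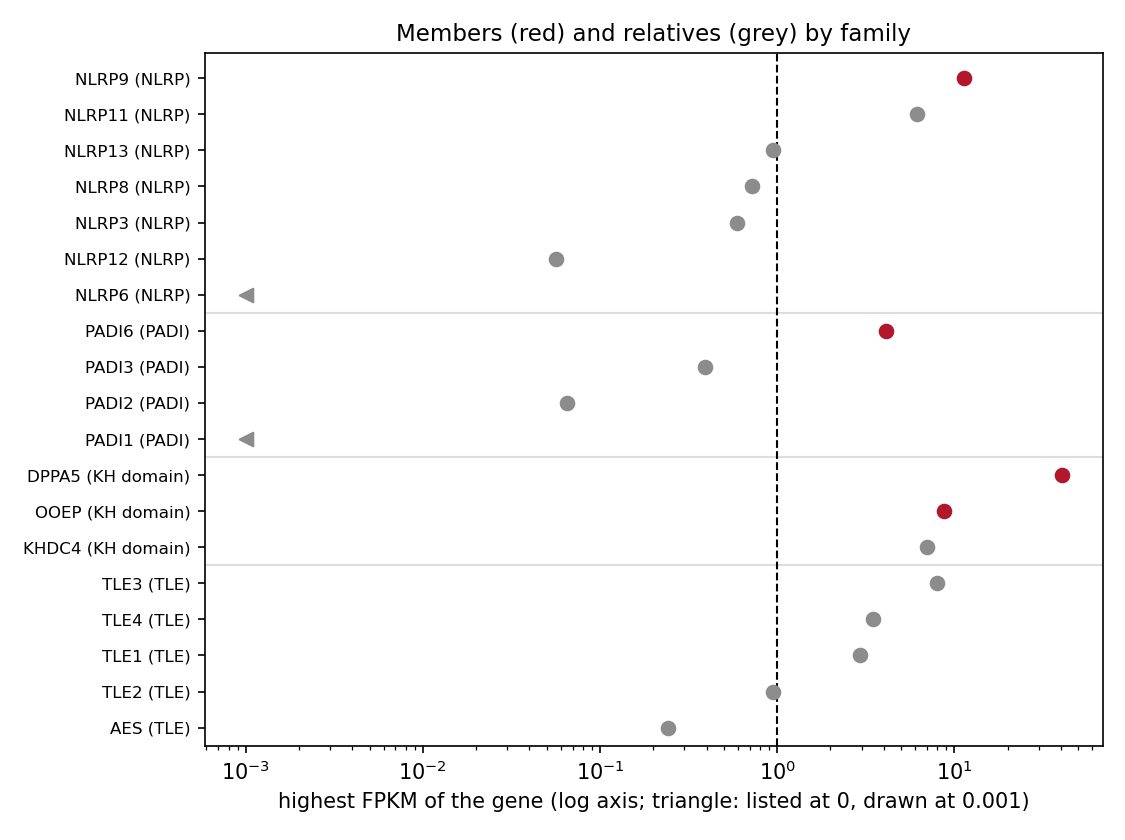
Highest FPKM on a log axis (x) for the members (red) and the listed relatives with a row (grey). In the KH-domain block the grey gene is KHDC4, which shares the domain and not the small family. A dashed line lies at 1 FPKM, and triangles mark genes listed at 0, drawn at 0.001. NLRP9 (11.4 FPKM), PADI6 (4.10 FPKM) and DPPA5 (40.4 FPKM) are each the highest point of their block, while the TLE block holds no member.

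Genes tied to the functions of the complex were mixed. The complex is known to act on the egg's actin through cofilin. Of 5 partners and actin regulators 4 had a row and 2 (50%) reached 1 FPKM, near the share of all genes (48.8%). These were the cofilin genes CFL1 at 23.3 FPKM and CFL2 at 14.7 FPKM. PRKCE, a protein kinase C gene, stood at 0.122 FPKM, and ZBED3, whose product associates with the complex in mouse eggs, at 0.0881 FPKM. DPPA3 had no row, so only genes of DNA methylation could be listed, and their RNA does not show the state of its pathway. Of 8 genes of DNA methylation and its removal 7 had a row and 3 (42.9%) reached 1 FPKM, near the 48.8% of all genes. The highest were DNMT1 at 29.0 FPKM and TET1 at 21.1 FPKM, and UHRF1, whose protein DPPA3 keeps from DNA, was the highest below the threshold at 0.896 FPKM. TET3, the dioxygenase of the zygote, was at 0.0800 FPKM. The methylation count was 5 of 7 at 0.5 FPKM (56.5% of all genes) and 6 of 7 after rescaling to TPM (61.3%).

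The members were compared with other genes known for their expression in the oocyte. Of 17 oocyte genes with a row, 14 (82.4%) stood at 1 FPKM or more, beside 48.8% of all genes. The oocyte median was 10.2 FPKM, beside 10.1 FPKM for the 4 members. OOSP2, an oocyte-secreted protein gene, led at 179 FPKM, followed by H1FOO, which encodes the linker histone of the egg, at 90.3 FPKM, and PABPN1L was the highest below 1 FPKM at 0.651 FPKM. DPPA5 had 5 of the 17 above it and 12 below, NLRP9 had 8 above and 9 below, OOEP had 9 above and PADI6 had 10 above. At 5 FPKM the oocyte count was 9 of 17, beside 3 of 4 members and 28.4% of all genes. Oocytes and earlier embryos of the pig were not analysed here, and whether these RNAs were left from the egg or made by the embryo was not tested.

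DPPA5 is also read as a gene of pluripotent cells. Of 15 pluripotency genes listed 10 had a row, and 9 of the 10 (90.0%) reached 1 FPKM, beside 48.8% of all genes. POU5F1 and NANOG were not on this list. The median of the 10 was 8.20 FPKM, and DPPA5 stood above 8 of them. The exceptions were the highest, KLF17 (85.9 FPKM) and ZFP42 (49.9 FPKM), and TFCP2L1 was the highest below the threshold at 0.283 FPKM. NLRP9 had 4 of the 10 above it, OOEP 5 and PADI6 6.

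Markers of the stage named by the labels were read next. No other stage was set beside them, so they cannot tell a morula from a neighbouring stage. Like the oocyte and pluripotency lists above, these lists were chosen with earlier results of these data known. Their counts are therefore no test. All 8 morula markers passed 1 FPKM, beside 48.8% of all genes. They stood between 6.02 and 194 FPKM, led by TFAP2C at 194 FPKM and PARD6B at 88.6 FPKM, with KRT8 the lowest. Cumulus cells surround the egg and could carry RNA into a library. Of 8 cumulus markers with a row 1 (12.5%) reached 1 FPKM, beside 48.8% of all genes. It was FST (follistatin) at 16.9 FPKM, and the next was CYP19A1 at 0.835 FPKM. The count was 2 of 8 at 0.5 FPKM (56.5% of all genes), with rows summed (50.6%) or after rescaling to TPM (61.3%). FSHR, INHA and TNFAIP6 were listed at 0, AMH was under 1e-06 FPKM, and PTX3 stood at 0.0135 FPKM. Of 6 leukocyte markers, a lineage in which NLR genes are known, 3 (50%) reached 1 FPKM, near the share of all genes (48.8%). They were AIF1 at 7.93 FPKM, CD14 at 2.38 FPKM and CD68 at 1.32 FPKM. At 5 FPKM AIF1 alone of these 6 remained, beside 28.4% of all genes. PTPRC, which encodes the common leukocyte antigen, was at 0.0269 FPKM, LYZ at 0.261 FPKM and CSF1R was listed at 0. All 4 reference genes with a row stood above 1 FPKM, beside 48.8% of all genes. They ran from 43.3 to 1599 FPKM, led by H3F3A at 1599 FPKM and GAPDH at 84.5 FPKM.

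**Figure D3:**
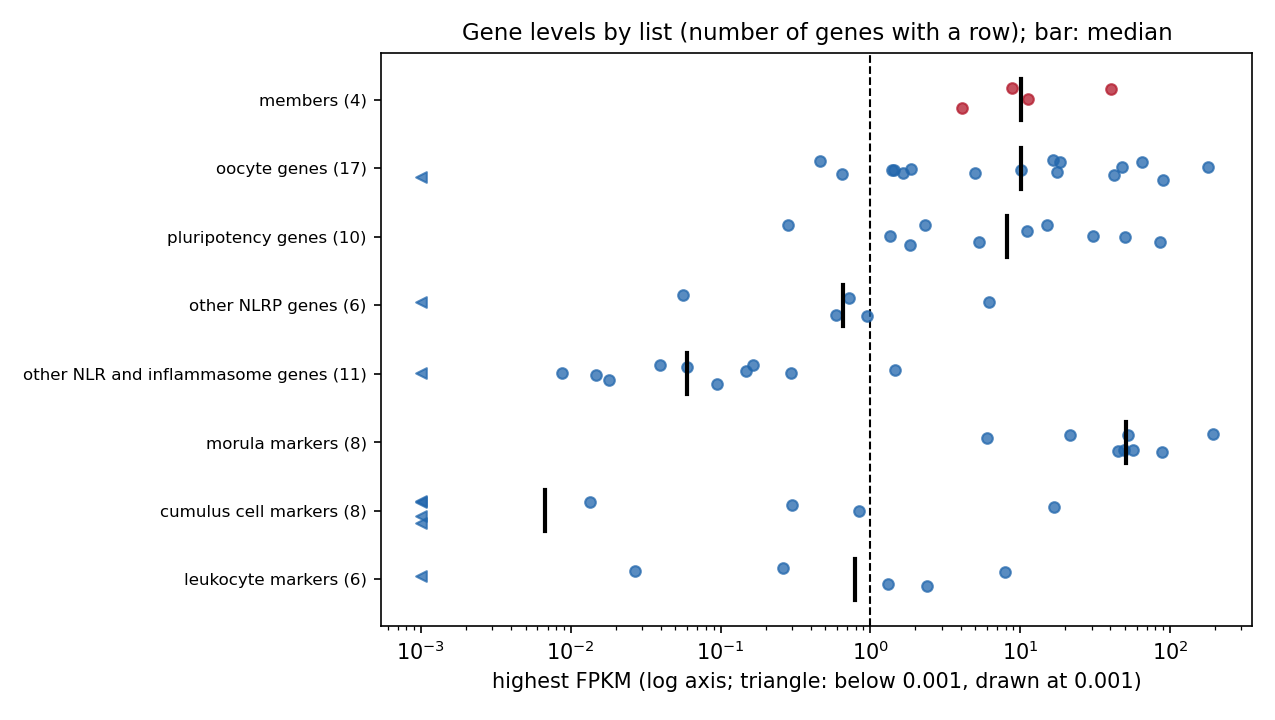
Highest FPKM on a log axis (x) of each gene with a row, by list (y, number of genes in brackets), with black bars at the medians and a dashed line at 1 FPKM; triangles are values below 0.001, drawn there. The median of the members (10.1 FPKM) lies beside those of oocyte genes (10.2 FPKM) and pluripotency genes (8.20 FPKM), and those of the other NLRP genes (0.656 FPKM) and of the inflammasome list (0.0601 FPKM) lie lower.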

How the data were processed

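The authors deposited FPKM values per Ensembl transcript, per the file headers, with the 4 libraries merged into 1 column, as the name of the table says. Libraries were made with Smart-seq2, per the labels' protocols, and the labels give the molecule as total RNA, where sister RNA samples have polyA RNA. The submitters' processing notes name TopHat2 2.1.1 and Cufflinks 2.2.1 among tools for all data types. Which of them made this table, and its annotation, are not given in the sources used here.

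Here the 37571 rows were collapsed to 15877 genes with pandas 2.3.3 (Python 3.11.15). A gene's value was its highest row. Rank 1 is the highest gene, and "below" is the share of other genes with a lower value. The collapse and ranks were tested on simulated data. In the table, 4534 rows were above 0 and under 1e-06 FPKM, and the last 474 rows were all at 0; none of the listed genes lies only there. No pig sequence was used. The members and lists were chosen with earlier results of these data known. Named genes were all members and their family genes, the 2 highest of each other list, its highest below 1 FPKM, and the nearest ranks to the highest member. Single genes of the marker, inflammasome, methylation and pluripotency lists outside that rule were named after their values were seen.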

Additional observations from a re-analysis of the deposited data

How the results depend on the processing

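All 4 members passed with rows summed (as did 50.6% of all genes), with rows averaged (41.8%), after rescaling to TPM (61.3%), at 0.5 FPKM (56.5%) and without the trailing rows at 0 (49.5%). At 5 FPKM 3 members did (28.4%). With rows averaged NLRP9 stood below OOEP. Summed rows lowered the share of genes below DPPA5 from 92.5% to 91.4% and below PADI6 from 68.9% to 66.2%, since genes with several rows gained. Among genes above 0 alone, 90.9% lay below DPPA5 and 62.4% below PADI6. Of the 90 genes with a row in the other lists, 50 stood at 1 FPKM or more, beside 48.8% of all genes. That count ran from 37 (threshold of 5 FPKM, 28.4% of all genes) to 61 (TPM, 61.3%) over the settings fixed at the outset. Among genes with 1 row only, an alternative chosen after seeing the data, it was 27 of 41, beside 40.0% of all such genes. The number is lower because fewer genes were counted, while the share that passed is not lower. For the single lists, 21 of 90 counts under an alternative differed by over 1.5 times from the main count. Some of these come from the setting of genes with 1 row only, where fewer genes were counted. There morula markers were at 3 of 3 and reference genes at 1 of 1, beside 40.0% of all genes with 1 row, yet both counts moved. The libraries could not be left out in turn, as they share 1 column. No paired analysis was possible because no comparison between groups was made. With unknown depth, no interval or detection limit can be given.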
